A study of Mus musculus with 6 samples.

Results

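Mitochondrial and peroxisomal fatty acid oxidation was followed through 38 genes, which were picked by name among the array's annotated probe sets, using current symbols and older synonyms. Of these, 36 had at least 1 probe set of their own, 61 probe sets in all, out of 18193 genes and 45037 probe sets on the array. Ucp2 was not named for any probe set in the annotation used, and Cpt1b was named only together with neighbouring genes. The samples were muscle from 3 mice labelled SIRT6KO (KO below) and 3 labelled wild type (WT), all on the 129SvJ strain background, with 1 Affymetrix Mouse Genome 430 2.0 array per mouse. SIRT6 is a NAD-dependent deacylase of chromatin. The labels do not give which muscle was taken, the age or sex of the mice, or the design of the SIRT6 allele. The comparison addresses which muscle transcripts differ between the KO and WT labels.

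Fatty acids enter a muscle fibre through transport proteins, are activated to acyl-CoA, and cross into mitochondria as carnitine esters. There, beta-oxidation repeats a cycle of dehydrogenation, hydration, dehydrogenation and thiolysis, and passes electrons through the electron transfer flavoprotein to the respiratory chain. Malonyl-CoA blocks the carnitine step, so enzymes that make or break it set the rate of entry. Peroxisomes shorten very long and branched chains with their own enzymes. In muscle, this programme is known to be induced by fasting and exercise through PPAR and oestrogen-related receptors.

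The labels, array quality and cell markers were examined before the pathway. Values are intensities, the brightness the authors deposited for each probe set on a linear scale. Sirt6 had intensities of 22.6, 18.3 and 13.7 in KO muscle, against 23.2, 15.1 and 21.3 in WT muscle. The groups overlapped (fold 0.953, 95% interval 0.735 to 1.23, limma adjusted p = 0.947). The labels do not place the allele relative to the Sirt6 probe set, which therefore checks nothing about them. Xist, the transcript of the inactive X chromosome, averaged 1007 ± 253 in KO and 28.5 ± 3.54 in WT muscle (SD, n = 3 each). Eif2s3y, a Y-linked gene, averaged 2.63 ± 1.5 in KO and 58.5 ± 16.8 in WT muscle. KO label and sex therefore cannot be told apart in any comparison below. Skeletal muscle markers were bright in all 6 arrays, with summed intensities of 7 genes from 52870.3 to 53828.8 in KO and from 51766.3 to 85152.3 in WT muscle. Heart markers were near the floor, with 4 genes summing to at most 54.0 in KO and at most 35.6 in WT muscle. Among the arrays, 2 stood apart. KO replicate 3 correlated least with the others over all probe sets, at 0.9098 to 0.9211 with the WT arrays and at 0.9294 and 0.9508 with the other KO arrays, where pairs without it reached at least 0.9419. WT replicate 1 was brighter: relative to WT replicate 2, its spiked-in control transcripts read 1.926 times as bright, compared with 0.957 to 1.011 times on the rest. Array medians ranged from 10.8 to 15.0. Nothing in the labels ties a batch to an array.

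No fatty acid oxidation gene passed the test over all probe sets. The limma test at an adjusted p under 0.05 called 0 of the 36 genes, where it called 4 of 45037 probe sets (0.00888%). Of all 18193 genes at their brightest probe set it called 1, the sex-linked transcript Xist (adjusted p = 0.00401). Among the 22518 probe sets above the median level it called 79 (0.351%), again with 0 of the 36 genes among them. The lowest adjusted p among the 36 was 0.524, for Mlycd. At an unadjusted p under 0.05 there were 7 of the 36, against 9.83% of all genes at their brightest probe set. That count was 9 without KO replicate 1, 4 without WT replicate 2, and 3 without KO replicate 2, KO replicate 3, WT replicate 1 or WT replicate 3. The share of all genes was not counted with an array left out, so these counts cannot be set against a background. Of the 7 with all arrays, 6 were higher in KO muscle, against 3.54% of all genes, and 1 was lower, against 6.29% of all genes. With 3 mice per group, an exact two-sided permutation test of a single gene cannot go below p = 0.1.

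The direction of the differences was split. The median difference of the 36 genes was 0.053 on the log2 scale, beside -0.017 over all genes, and 19 were higher and 17 lower on average in KO muscle. Over all genes 46.8% were higher. The split was 27 higher and 9 lower without WT replicate 1, 24 and 12 without KO replicate 3, and 15 and 21 without WT replicate 3. The median over all genes also moved, to 0.036, -0.029 and -0.07 in the same order. With all arrays, the differences of the 36 lay between -0.51 for Acot13 and 1.96 for Acot1. By size, Acot1, Acot2, Slc27a1, Mlycd and Eci2 differed by a log2 value of 1 or more, 5 of the 36, where 0.912% of all genes did. None of the 36 had a difference of -1 or less, where 0.863% of all genes did. This count of 5 was 2 without KO replicate 3 (0.462% of all genes) and 2 without WT replicate 3 (0.627%). It was 3 without KO replicate 2 (0.879%) and 2 with an offset of 64 in place of 16 (0.385%). Without KO replicate 3 the differences were 1.41 for Acot1, 1.02 for Acot2, 0.945 for Slc27a1, 0.897 for Mlycd and 0.855 for Eci2. Acot1 and Acot2 had a difference of 1 or more with any of the 6 arrays left out. In 4 genes (Acot1, Slc27a1, Mlycd and Eci2) all KO arrays lay above all WT arrays, where 4.51% of all genes did, and in 1 (Acot13) they lay below, where 8.34% did. The count above was 10 without KO replicate 1 (16.4% of all genes) and 7 without WT replicate 2 (7.99%). The count below was 5 without WT replicate 3 (19.1% of all genes). It was 3 without WT replicate 2 (12.8%) and 2 without KO replicate 2 (15.1%). With all arrays, the remaining 31 overlapped between the groups.

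**Figure D1:**
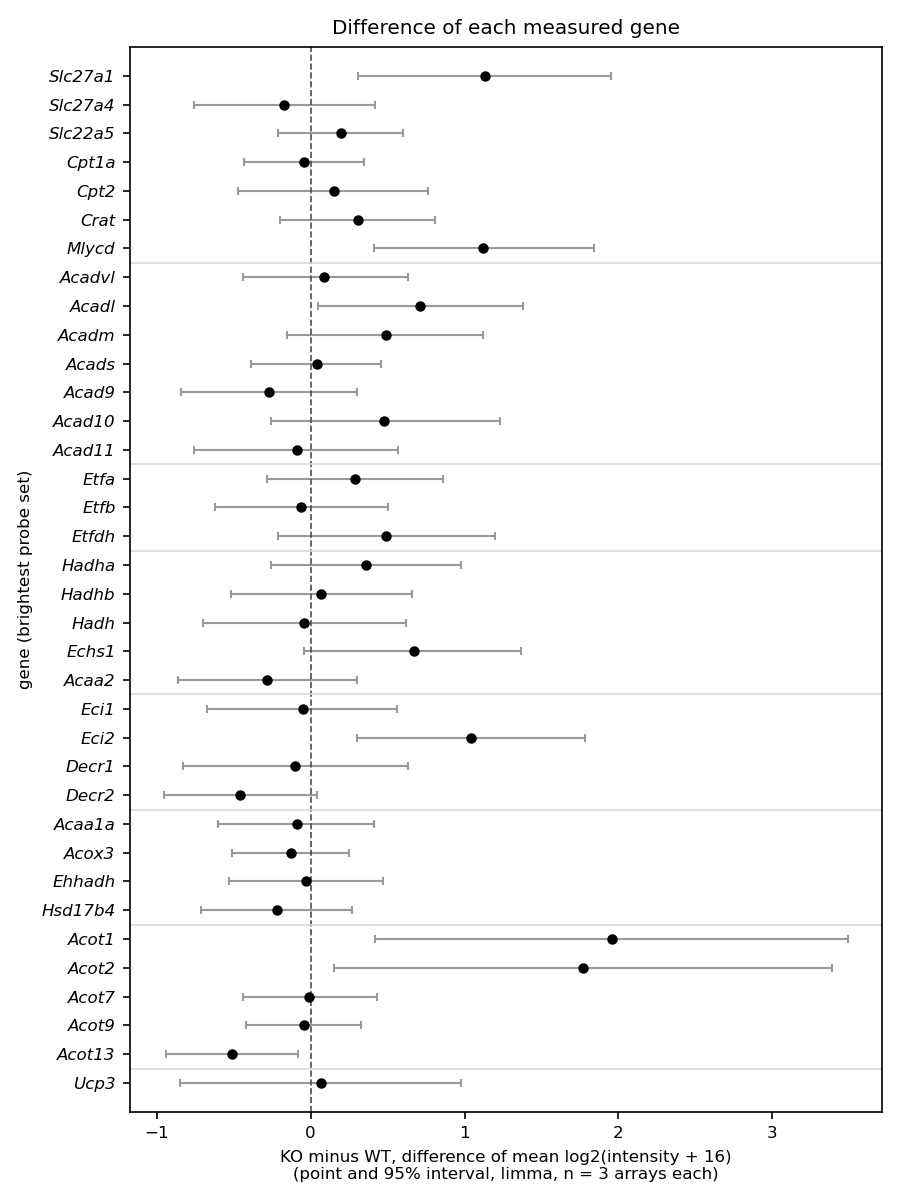
Difference between KO and WT muscle for the 36 measured genes, grouped by role from entry (top) to uncoupling (bottom); the x axis is the difference of mean log2(intensity + 16), KO minus WT, with a point for the estimate and a bar for its 95% interval (n = 3 arrays each). Acot1, at 1.96, and Acot2, at 1.77, lie farthest to the right, Acot13, at -0.51, farthest to the left, and most intervals cross 0.

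Acyl-CoA thioesterases were at both ends of this range, although Decr2 was lower than Acot13 with an offset of 1 (-0.79 against -0.53) and without KO replicate 2 (-0.607 against -0.534). These enzymes split acyl-CoA into free fatty acid and CoA. Acot1, the cytosolic enzyme for long chains, had intensities of 12.2, 109.5 and 169.2 in KO muscle, against 6.4, 6.8 and 6.0 in WT muscle. All 3 WT values were dim, KO replicate 1 was just above them, and KO replicates 2 and 3 were far higher. The fold was 3.88 (95% interval 1.34 to 11.2, adjusted p = 0.552) on log2(intensity + 16), and for so dim a probe set it depends on the offset. The log2 difference of 1.96 was 3.09 with an offset of 1 and 1.05 with an offset of 64. Acot2, its mitochondrial counterpart and chromosomal neighbour, had 88.9, 239.3 and 770.7 in KO muscle, against 96.7, 55.8 and 49.6 in WT muscle. KO replicate 1 fell inside the WT range, and KO replicates 2 and 3 lay above it (fold 3.41, 95% interval 1.11 to 10.5, adjusted p = 0.567). The other Acot2 probe set had 12.4, 39.5 and 58.6 in KO muscle, against 29.7, 23.6 and 22.7 in WT muscle, with KO replicate 1 the lowest of the 6. Acot1 and Acot2 are close relatives, and a further probe set is annotated to both. It had 28.8, 141.5 and 247.2 in KO muscle, against 25.3, 28.1 and 20.0 in WT muscle, so all KO values were above all WT values, KO replicate 1 by little (log2 difference 1.61, adjusted p = 0.564). How far each of these probe sets reads the related gene is not known here.

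The other thioesterases had lower or nearly equal means in KO muscle. Acot13, a small mitochondria-associated thioesterase, had 301.1, 280.7 and 232.1 in KO muscle, against 465.1, 403.5 and 315.7 in WT muscle. Every KO value was below every WT value (fold 0.704, 95% interval 0.522 to 0.948, adjusted p = 0.563). Acot7, the thioesterase abundant in brain, averaged 52.0 ± 6.27 in KO and 53.2 ± 14.5 in WT muscle (SD, n = 3 each). Acot9, a mitochondrial thioesterase, averaged 109 ± 17.0 in KO and 113 ± 15.4 in WT muscle. The log2 differences were -0.01 for Acot7 and -0.04 for Acot9, with 95% intervals for the fold of 0.736 to 1.35 for Acot7 and 0.748 to 1.26 for Acot9.

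Promoter sequence is shown for Acot1 and Acot2, which had the highest differences and lie side by side, and for Acadm and Ucp3, whose windows hold the core motif of nuclear receptors such as PPAR and oestrogen-related receptors. Each run is the 250 bases before the RefSeq start (GRCm38.p6), 5′ to 3′ on the gene's strand, with matches to AGGTCA or its reverse complement in capitals. They lie at chr12:84009252-84009501 (+ strand) for Acot1, chr12:83987611-83987860 (+) for Acot2, chr3:153944644-153944893 (- strand) for Acadm and chr7:100472741-100472990 (+) for Ucp3.
Acot1: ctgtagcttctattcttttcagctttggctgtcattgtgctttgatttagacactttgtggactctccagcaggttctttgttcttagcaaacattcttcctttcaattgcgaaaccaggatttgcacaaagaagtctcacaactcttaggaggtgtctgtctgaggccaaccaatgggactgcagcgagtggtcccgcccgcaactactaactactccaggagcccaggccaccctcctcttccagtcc
Acot2: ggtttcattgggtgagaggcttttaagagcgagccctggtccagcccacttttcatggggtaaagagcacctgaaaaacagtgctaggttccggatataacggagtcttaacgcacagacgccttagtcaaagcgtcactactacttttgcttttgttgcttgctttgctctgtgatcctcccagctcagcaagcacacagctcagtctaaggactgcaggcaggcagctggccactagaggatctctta
Acadm: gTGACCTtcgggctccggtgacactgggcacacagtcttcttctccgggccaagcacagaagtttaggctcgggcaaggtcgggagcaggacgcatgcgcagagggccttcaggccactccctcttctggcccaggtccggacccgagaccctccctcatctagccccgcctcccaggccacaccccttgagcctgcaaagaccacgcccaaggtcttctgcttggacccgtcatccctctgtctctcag
Ucp3: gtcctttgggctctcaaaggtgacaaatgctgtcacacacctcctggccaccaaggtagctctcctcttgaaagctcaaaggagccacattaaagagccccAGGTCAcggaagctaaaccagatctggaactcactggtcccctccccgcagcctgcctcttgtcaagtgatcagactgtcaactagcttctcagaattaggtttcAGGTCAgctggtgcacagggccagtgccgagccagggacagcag
The Acadm match begins 249 bases before the start, and those of Ucp3 149 and 44 bases before it. RefSeq windows of 300 bases, running to 50 bases past the start, were found for 31 of the 38 genes. On both strands, AGGTCA was present for 5 of these 31 (16.1%: Acadm, Acadvl, Cpt1a, Echs1 and Ucp3), and for 18.1% of all 27025 genes with a window. The longer oestrogen-related receptor element TCAAGGTCA, which contains AGGTCA, was in 0 of the 31 and in 0.466% of all genes. Of the 5 genes with a log2 difference of 1 or more, 0 held AGGTCA in this window, which says only that those letters are not there.

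Among genes of uptake and the carnitine step, the fatty acid transporter Slc27a1 and the malonyl-CoA decarboxylase Mlycd had the largest differences. Slc27a1, which brings long-chain fatty acids into muscle cells, had 106.3, 249.4 and 251.0 in KO muscle, against 80.9, 101.5 and 56.0 in WT muscle. KO replicate 1 was only just above the highest WT value, and KO replicates 2 and 3 were far above it (fold 2.19, 95% interval 1.24 to 3.88, adjusted p = 0.529). Its other probe set also separated the groups, with 69.6, 123.0 and 124.2 in KO muscle, against 65.2, 67.2 and 41.9 in WT muscle (log2 difference 0.70). Mlycd, which removes malonyl-CoA and so relieves the block on carnitine palmitoyltransferase, had 279.3, 447.1 and 578.3 in KO muscle, against 173.1, 245.9 and 142.2 in WT muscle. All KO values were above all WT values (fold 2.18, 95% interval 1.33 to 3.57, adjusted p = 0.524). Acacb and Acaca, which make malonyl-CoA, were added after their values were seen. Acacb had 226.4, 405.3 and 692.5 in KO muscle, against 281.5, 240.8 and 145.0 in WT muscle (log2 difference 0.85). Acaca had 17.5, 57.0 and 75.0 in KO muscle, against 258.5, 23.5 and 101.6 in WT muscle (log2 difference -0.84). Both overlapped between the groups.

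The carnitine enzymes with a probe set of their own had differences of 0.31 or less in size. Cpt1a, the liver-type outer-membrane carnitine palmitoyltransferase, had 55.8, 64.4 and 48.6 in KO muscle, against 72.8, 53.4 and 49.9 in WT muscle. The groups overlapped (fold 0.972, 95% interval 0.742 to 1.27). Cpt1b is the muscle-type enzyme, and its probe set is annotated to Cpt1b, Chkb and Gm44502 together, so its values cannot be assigned to Cpt1b alone. That probe set had 618.2, 851.3 and 735.1 in KO muscle, against 585.1, 667.8 and 460.9 in WT muscle. Its KO and WT values overlapped, with KO replicate 1 below WT replicate 2 (log2 difference 0.36, adjusted p = 0.648). Cpt2, which reforms acyl-CoA inside mitochondria, averaged 233 ± 34.1 in KO and 216 ± 70.3 in WT muscle (SD, n = 3 each). Crat, which buffers short acyl groups as carnitine esters, averaged 439.6 ± 61.8 in KO and 358 ± 89.5 in WT muscle. Its 2 dimmer probe sets had differences of -0.18 and -0.13 where the brightest had 0.31. Slc22a5, the carnitine importer, averaged 66.6 ± 5.72 in KO and 56.8 ± 13.1 in WT muscle. Slc27a4, another fatty acid transporter, averaged 51.1 ± 15.3 in KO and 59.5 ± 17.5 in WT muscle.

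**Figure D2:**
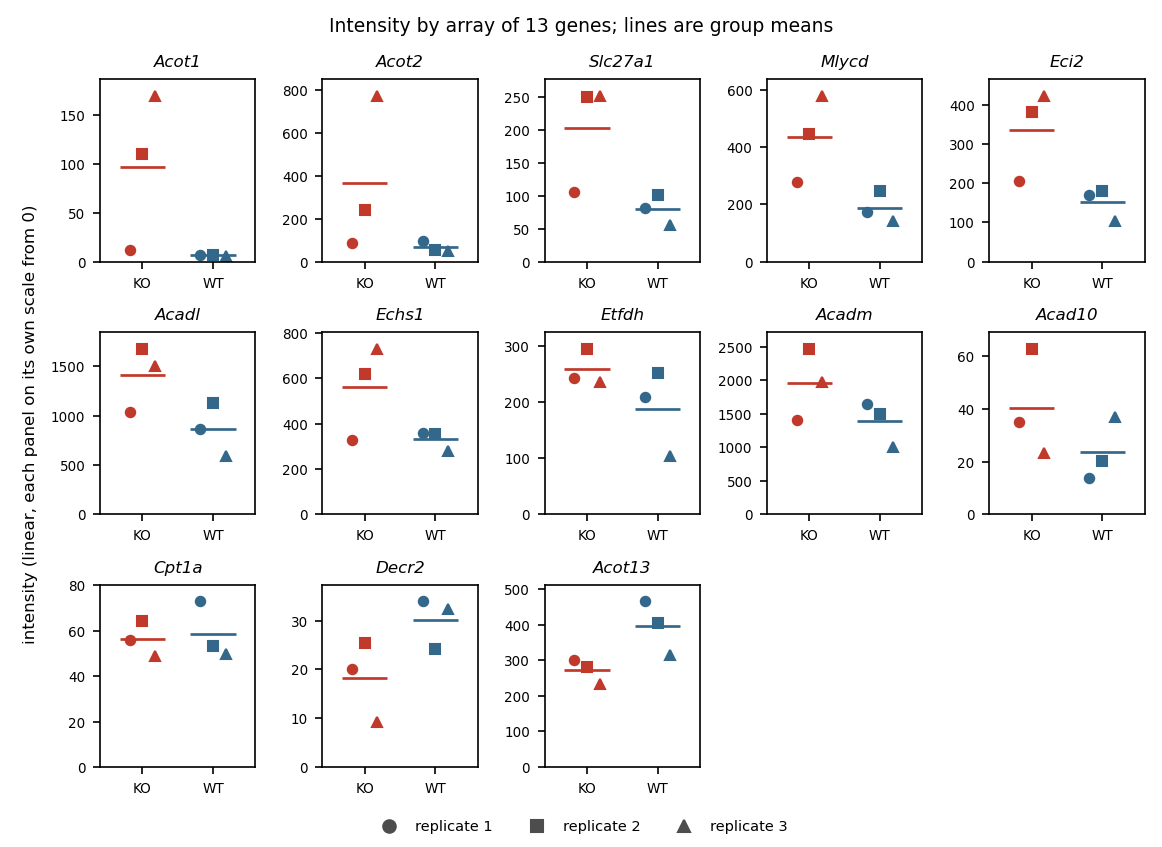
Intensity in each KO (red) and WT (blue) array for the 13 genes described value by value, in order of difference; the y axis is linear intensity from 0, scaled per gene, symbols mark replicates 1 to 3 and lines the group means. For Acot1, Acot2, Slc27a1, Mlycd and Eci2 the KO 2 and KO 3 arrays lie well above the WT arrays and KO 1 near them, while for Acot13 all KO arrays lie below.

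The acyl-CoA dehydrogenases open each turn of beta-oxidation, and their differences ranged from -0.27 for Acad9 to 0.71 for Acadl. Acadl, for long chains, had 1040.9, 1678.5 and 1504.4 in KO muscle, against 867.7, 1132.1 and 591.6 in WT muscle. KO replicate 1 lay below WT replicate 2, and KO replicates 2 and 3 above all WT arrays (fold 1.64, 95% interval 1.03 to 2.60, adjusted p = 0.572). Acadm, for medium chains, had 1415.1, 2472.4 and 1979.9 in KO muscle, against 1654.8, 1494.4 and 1009.1 in WT muscle. The same KO arrays were above all WT arrays, and KO replicate 1 was inside the WT range (log2 difference 0.49, 95% interval -0.15 to 1.12). Acad10, a family member of less settled role, had 34.9, 62.8 and 23.1 in KO muscle, against 13.8, 20.3 and 37.0 in WT muscle. Its groups overlapped, and its dimmer probe set went the other way (0.48 at the brightest, -0.19 at the dimmer). Acadvl, for very long chains, averaged 836 ± 115 in KO and 796 ± 206 in WT muscle (SD, n = 3 each). Acads, for short chains, averaged 253 ± 43.8 in KO and 245 ± 36.0 in WT muscle. Acad9, which also helps to assemble respiratory complex I, averaged 42.1 ± 10.6 in KO and 55.1 ± 19.5 in WT muscle. Acad11 averaged 110.2 ± 44.1 in KO and 116 ± 28.9 in WT muscle.

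The electron acceptors of these dehydrogenases differed by at most 0.49. Etfdh, which hands the electrons to ubiquinone, had 244.2, 295.9 and 236.5 in KO muscle, against 209.8, 252.2 and 104.9 in WT muscle. WT replicate 3 was far below the other 5 arrays, and the other 2 WT values lay among or just below the KO values (log2 difference 0.49, 95% interval -0.21 to 1.20). Without WT replicate 3 the Etfdh difference was 0.153. Etfa and Etfb, the subunits of the flavoprotein, averaged 909 ± 182 and 1451 ± 333 in KO muscle, against 749 ± 199 and 1504 ± 323 in WT muscle.

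In the later steps of the mitochondrial cycle, Echs1 had the largest difference. Echs1, the short-chain enoyl-CoA hydratase, had 329.1, 620.1 and 730.9 in KO muscle, against 361.1, 354.0 and 277.6 in WT muscle. KO replicate 1 lay inside the WT range while KO replicates 2 and 3 were above it (fold 1.59, 95% interval 0.975 to 2.59, adjusted p = 0.596). The subunits of the trifunctional protein, which handles long chains, had log2 differences of 0.36 for Hadha and 0.07 for Hadhb. Hadha averaged 833 ± 230.3 in KO and 641 ± 154 in WT muscle, and Hadhb averaged 1089 ± 196 in KO and 1058 ± 307 in WT muscle (SD, n = 3 each). Hadh, the dehydrogenase for shorter chains, averaged 2478 ± 486 in KO and 2616 ± 839 in WT muscle. Acaa2, the thiolase, averaged 618 ± 133 in KO and 758 ± 186 in WT muscle, with all 3 of its probe sets lower on average, between -0.31 and -0.22. None of these groups separated.

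Unsaturated chains need further isomerases and reductases, and among their genes Eci2 had the largest difference. Eci2, an enoyl-CoA isomerase found in peroxisomes and mitochondria, had 206.2, 383.4 and 423.0 in KO muscle, against 171.4, 181.5 and 104.8 in WT muscle. Every KO value exceeded every WT value, KO replicate 1 by the least (fold 2.06, 95% interval 1.23 to 3.44, adjusted p = 0.529). Its mitochondrial relative Eci1 averaged 472 ± 113 in KO and 495 ± 143 in WT muscle (SD, n = 3 each). Decr1, the mitochondrial dienoyl-CoA reductase, averaged 374 ± 155 in KO and 389.8 ± 95.3 in WT muscle. Decr2, its peroxisomal counterpart, had 20.1, 25.3 and 9.2 in KO muscle, against 33.9, 24.2 and 32.3 in WT muscle. This dim probe set overlapped between the groups through KO replicate 2 (log2 difference -0.46, 95% interval -0.95 to 0.04).

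The peroxisomal enzymes had small differences, and in all 4 the KO mean was the lower. Acox3, an oxidase of branched chains, averaged 18.4 ± 2.04 in KO and 22.0 ± 6.57 in WT muscle (SD, n = 3 each). Ehhadh, the bifunctional enzyme, averaged 16.2 ± 0.896 in KO and 17.8 ± 9.72 in WT muscle. Hsd17b4, the other bifunctional enzyme, averaged 117 ± 25.2 in KO and 139.7 ± 29.9 in WT muscle. Acaa1a, a peroxisomal thiolase, averaged 64.4 ± 8.79 in KO and 71.3 ± 21.4 in WT muscle. The differences lay between -0.22 and -0.03, and 0 of the 4 separated the groups. Ehhadh turned to 0.00465 with quantile normalization. Without WT replicate 1, the array with the brighter controls, Ehhadh was 0.187 and Acaa1a 0.0626. Ucp3, the muscle uncoupling protein of the inner mitochondrial membrane, had 219.6, 105.3 and 91.1 in KO muscle, against 148.0, 166.8 and 72.5 in WT muscle. KO replicate 1 was the highest of the 6, where in Acot1, Slc27a1, Mlycd and Eci2 it was the lowest KO array (log2 difference 0.07, 95% interval -0.85 to 0.98), without it the difference was -0.28, and without WT replicate 3 it was -0.254.

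**Figure D3:**
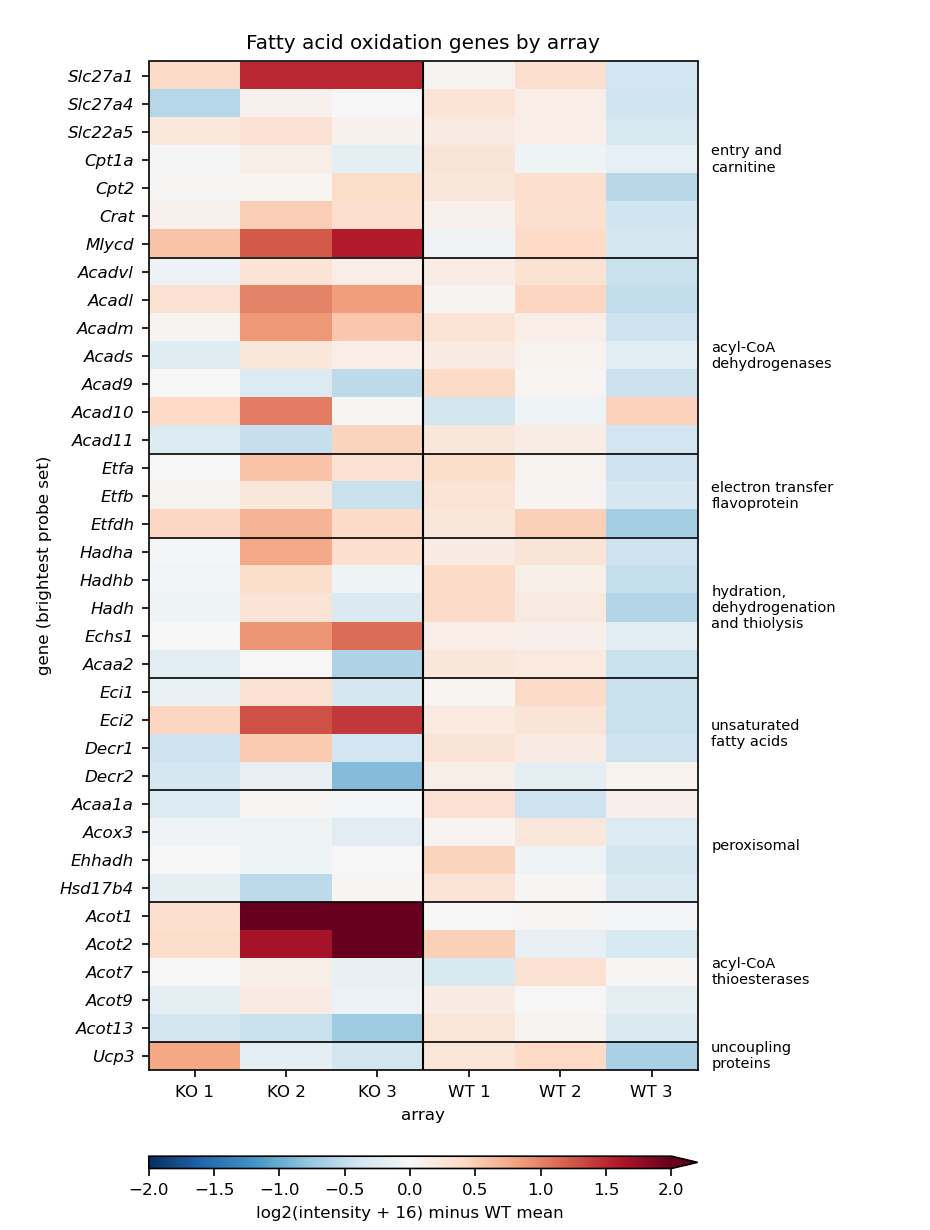
Each of the 36 genes (rows, grouped by role) in each array (columns, KO left of WT), coloured by log2(intensity + 16) minus the mean of the WT arrays and shown at full colour above 2. The darkest red cells, of Acot1, Acot2, Slc27a1, Mlycd and Eci2, fall in KO 2 and KO 3, and the column of WT 3 is blue for most genes.

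Arrays of 1 group also differed from each other. The median of the 36 genes, relative to the WT mean, was -0.01, 0.26 and 0.03 (log2) in KO replicates 1, 2 and 3, against 0.22, 0.14 and -0.38 in WT replicates 1, 2 and 3. Over all genes the same medians were -0.10, 0.03 and -0.01 in KO muscle and 0.15, 0.00 and -0.14 in WT muscle. WT replicate 3 was the lowest WT array for 32 of the 36 genes (88.9%), compared with 59.3% of all genes. KO replicate 1 lay inside the WT range for 25 of the 36 (69.4%), compared with 53.8% of all genes. Without WT replicate 3 the median difference of the 36 genes was -0.128 (-0.07 over all genes), and without WT replicate 1 it was 0.178 (0.036 over all genes). With quantile normalization it was -0.001 and with arrays centred on their medians 0.075.

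Markers of fibre type and fat also differed between arrays. All 7 slow fibre markers averaged higher in KO muscle, with a median difference of 1.083. In 1 of them, Tnnc1, every KO array lay above every WT array (4.51% of all genes), and 6 overlapped. Their summed intensity was 2259.7, 6263.6 and 1456.5 in KO replicates 1 to 3, against 1260.0, 2085.1 and 695.7 in WT replicates 1 to 3. KO replicate 2 was the highest array for 7 of 7 (17.9% of all genes). WT replicate 3 was the lowest for 7 of 7 (5479 of all 18193 genes). Fast fibre markers had a median difference of -0.155 over 6 genes, none of which separated the groups. Their median relative to the WT mean was -0.16, -0.20 and -0.16 in KO replicates 1 to 3. It was 0.42 in WT replicate 1, the array with the brighter controls, and -0.21 and -0.23 in WT replicates 2 and 3. Some were near the top of the range: Atp2a1 had 10562.5 in KO replicate 3, that array's highest value. Whether such bright probe sets can show a difference was not tested. All 7 measured adipocyte markers of a list of 9 had a negative log2 difference, 4 of them with every KO array below every WT array (8.34% of all genes). For Cidec that difference was only -0.09, and its mean intensity was slightly higher in KO muscle (75.4 against 73.7 in WT muscle). Summed intensities of the 7 were 2597.8, 4216.3 and 3653.9 in KO muscle and 7552.9, 4703.0 and 4019.7 in WT muscle. None of the 7 was at 0, but some values lay below the array's median. These were Lep in every KO array and in WT replicate 1, and Ucp1 in KO replicates 2 and 3. Without detection calls such values cannot be told from background. Ucp1, the uncoupling protein of brown fat, an adipose tissue rich in fatty acid oxidation enzymes, had 129.9, 5.9 and 2.3 in KO muscle, against 877.2, 570.3 and 586.1 in WT muscle. In such bulk tissue fewer cells of a type and less RNA per cell cannot be told apart. Of 5 macrophage markers, 2 averaged higher and 3 lower in KO muscle, with sums from 176.4 to 344.4 in KO and from 232.8 to 352.9 in WT muscle. Liver markers summed to at most 162.0 in KO arrays and reached 449.6 in WT replicate 2. The part of these cell types in the values of the fatty acid oxidation genes was not tested.

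**Figure D4:**
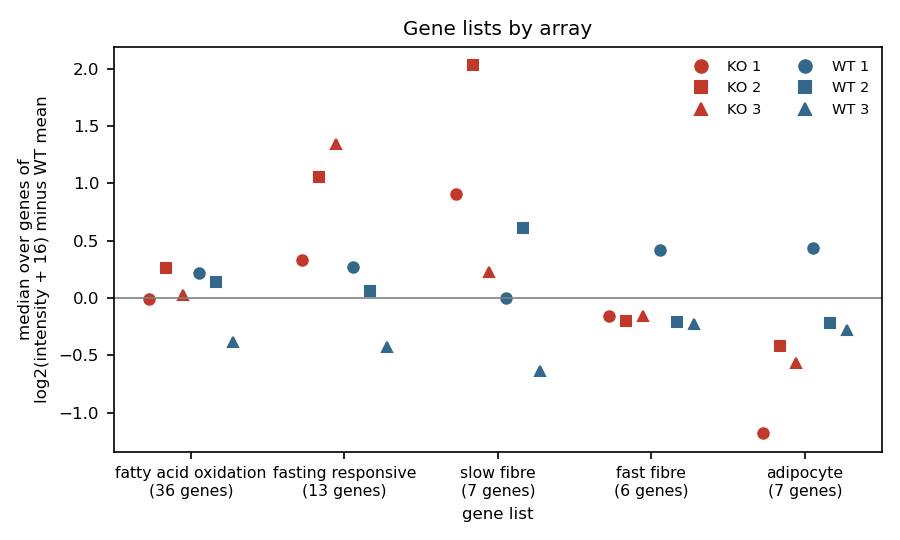
Median over the genes of a list of log2(intensity + 16) minus the WT mean, for each KO (red) and WT (blue) array; symbols mark replicates 1 to 3. For the 36 fatty acid oxidation genes the KO and WT arrays intermingle with WT 3 lowest at -0.38, for fasting-responsive genes KO 2 and KO 3 are highest, at 1.06 and 1.34, and for slow fibre markers KO 2 is highest, at 2.03.

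Genes around the pathway were read from a list of 38 further oxidation genes, of which 35 were measured. Their median difference was 0.040, with 19 higher and 16 lower on average, and 0 passed the adjusted test in either direction, where 2 had an unadjusted p under 0.05, both lower (6.29% of all genes). Acot11, another thioesterase, averaged 29.9 ± 11.9 in KO and 63.9 ± 21.3 in WT muscle (SD, n = 3 each, adjusted p = 0.552). Pex7, an import receptor of peroxisomes, averaged 77.7 ± 9.62 in KO and 108 ± 10.1 in WT muscle (adjusted p = 0.555). Cd36, the fatty acid translocase, averaged 938 ± 366 in KO and 512 ± 135 in WT muscle (adjusted p = 0.584). For Pex7 every KO array was below every WT array, while Acot11 and Cd36 overlapped. In the list, 3 of the 35 had every KO array below every WT array (8.57%), near the 8.34% of all genes. In 0 of them every KO array lay above (4.51% of all genes).

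A list of genes known to respond to fasting and fatty acids had a higher median. Of 14 listed, which include Acot1, Cpt1a and Ucp3 of the pathway itself, 13 were measured. Their median difference was 0.835, with 10 higher and 3 lower on average and 0 past the adjusted test in either direction. An unadjusted p under 0.05 was seen for 7, with 6 higher (3.54% of all genes) and 1 lower (6.29% of all genes). The list's median relative to the WT mean was 0.33, 1.06 and 1.34 in KO replicates 1, 2 and 3, against 0.27, 0.06 and -0.43 in WT replicates 1, 2 and 3. KO replicate 3 was the highest array for 8 of the 13 (61.5%, and 22.8% of all genes). Pdk4, the kinase that shuts off pyruvate oxidation, had 3029.7, 4177.4 and 5683.7 in KO muscle, against 1369.1, 1404.4 and 482.0 in WT muscle (adjusted p = 0.511). KO replicate 1, the lowest KO array, still lay above the highest WT array. Slc25a34, a mitochondrial carrier, had 56.7, 107.2 and 110.8 in KO muscle, against 42.0, 32.9 and 20.2 in WT muscle (adjusted p = 0.519). Plin5, the lipid droplet coat protein of oxidative tissues, had 115.2, 170.6 and 211.3 in KO muscle, against 85.8, 96.7 and 46.7 in WT muscle (adjusted p = 0.529). All 3, picked for the lowest p of the list, separated the groups. In the list, 6 of the 13 had every KO array above every WT array (4.51% of all genes). Plin2 was the 1 with every KO array below (8.34%) and was named after its values were seen. It had 183.8, 164.2 and 123.4 in KO muscle, against 436.3, 312.9 and 190.1 in WT muscle (fold 0.547, adjusted p = 0.562).

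**Figure D5:**
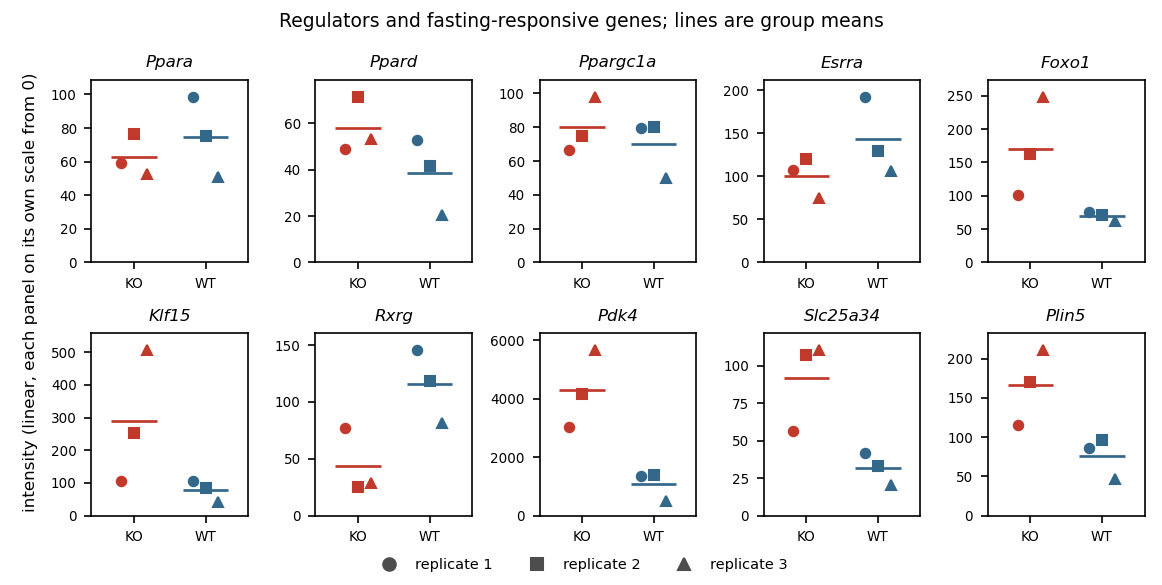
Intensity in each KO (red) and WT (blue) array for regulators and fasting-responsive genes; the y axis is linear intensity from 0, scaled per gene, symbols mark replicates 1 to 3 and lines the group means. Foxo1, Pdk4, Slc25a34 and Plin5 are higher and Rxrg lower in every KO array, while Ppara, Ppard, Ppargc1a, Esrra and Klf15 overlap between the groups.

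The transcription factors and coactivators of these genes were mixed in direction. Of 24 listed regulators 23 were measured, with a median difference of 0.159, and 0 passed the adjusted test in either direction, where 4 had an unadjusted p under 0.05, 3 higher (3.54% of all genes) and 1 lower (6.29% of all genes). Ppara, the fatty acid receptor, averaged 62.7 ± 12.3 in KO and 74.8 ± 24.0 in WT muscle (SD, n = 3 each). Ppard, the PPAR most tied to muscle oxidation, averaged 57.9 ± 11.9 in KO and 38.3 ± 16.4 in WT muscle. The coactivator Ppargc1a averaged 79.9 ± 16.3 in KO and 70.1 ± 17.3 in WT muscle, and Esrra, an oestrogen-related receptor, averaged 101 ± 23.5 in KO and 143 ± 44.5 in WT muscle. These 4 overlapped between the groups. Foxo1, a factor active in fasting, had 101.0, 163.0 and 248.9 in KO muscle, against 76.0, 71.2 and 62.5 in WT muscle (fold 2.07, adjusted p = 0.524). Rxrg, a partner of nuclear receptors in muscle, had 77.1, 25.3 and 28.7 in KO muscle, against 146.1, 118.7 and 81.7 in WT muscle (fold 0.432, adjusted p = 0.529). Foxo1 was higher and Rxrg lower in every KO array. Klf15, a fasting-induced factor, had 104.8, 253.9 and 508.3 in KO muscle, against 105.2, 84.1 and 41.1 in WT muscle, with KO replicate 1 inside the WT range (adjusted p = 0.562). Ppargc1b, a relative of Ppargc1a chosen after its values were seen, had 111.9, 107.6 and 23.7 in KO muscle, against 177.7, 180.1 and 120.3 in WT muscle (adjusted p = 0.602).

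Several genes have more than 1 probe set, and these agreed in direction for most. Of 19 such genes, all probe sets had the same sign in 13, and in 6 (Cpt2, Crat, Acad10, Etfdh, Hadh and Acox3) at least 1 went the other way. Some of the disagreeing probe sets were dim, such as the second of Etfdh, with 4.3, 1.7 and 0.3 in KO muscle, against 14.0, 1.4 and 1.4 in WT muscle.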

How the data were processed

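Total RNA was extracted with TriPure and biotin-labelled by the Affymetrix standard protocol, per the labels. The authors deposited 1 linear intensity per probe set and array, and the sources used here do not state the software, scaling or background correction behind it. Column names match the samples' accessions, and 0 further columns were present.

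Of 45101 probe sets, 64 manufacturer controls were left out. The platform annotation gave 1 symbol for 34945, several for 932 and none for 9160, and 34741 matched the RefSeq gene table (GRCm38.p6), used for current names. Each gene is given by its brightest probe set (highest mean over the 6 arrays). Values were taken as log2(intensity + 16), without further normalization, and KO was compared with WT by limma 3.58.1 in R 4.3.3 (lmFit and eBayes, two-sided, Benjamini-Hochberg over all 45037 probe sets, threshold 0.05). Adjusted p-values, folds and 95% intervals are limma's. The fit was checked on simulated data. Nothing states that replicates share an extraction or scan. The p-values weigh the KO minus WT difference against the spread between mice, which limma moderates across probe sets. The number of mice limits the precision.

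The genes, lists and tests were chosen with earlier results of these data known. Values in every array are given for genes with an unadjusted p under 0.05 or among the 12 largest differences, and for Cpt1a and Cpt1b; those of Ucp3 were added after they were seen. Of the further lists, the 3 genes with the lowest p were named, with Ppara, Ppard, Ppargc1a, Esrra and Pdk4. Ppargc1b, Plin2, Acacb and Acaca were added after their values were seen. No table of protein sequences was used here.

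Alternatives changed the offset (1 or 64), normalized by quantiles, centred arrays on their medians, dropped dim probe sets, let the variance follow the level robustly, used a replicate block, averaged probe sets per gene, or left out an array. Counts of large differences and of separated groups under these were added after seeing the data.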

Additional observations from a re-analysis of the deposited data

How the results depend on the processing

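The number of fatty acid oxidation genes passing limma's adjusted test was 0 under every alternative run, with lowest adjusted p-values between 0.0715 (Acot1, without KO replicate 1) and 0.83 (Mlycd, without KO replicate 3). The filter to the 22518 probe sets above the median level kept all 36 genes and called 79 probe sets (0.351%). Its lowest adjusted p, 0.0888, was for Acot1, whose WT values lie below every array's median and which passed the filter through KO replicates 2 and 3, so this p is no support. The median difference of the 36 genes ranged from -0.128 to 0.178 with each array left out (-0.07 to 0.036 over all genes), and was -0.001 with quantile normalization.

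The number of probe sets called on the whole array, 4, moved with most settings: 9 with quantile normalization, 11 with median centring, 15 with a trended and robust variance, 1 with an offset of 64, 0 with the replicate block, and between 1 and 6 with each array left out. The cause was not tested. The labels do not pair the mice by replicate number. Same-numbered arrays had correlations of -0.057, 0.026 and -0.057 between their deviations from the group means, and not every array correlated best with its own number. Whether same-numbered mice share an extraction or scan cannot be told from these values.

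Chosen after seeing the data, the count of genes with a log2 difference of 1 or more was 5. It was 4 after quantile normalization (0.846% of all genes) and 5 after centring on medians (0.967%). With an offset of 1 it was 5 (4.53%) and with an offset of 64 it was 2 (0.385%). It lay between 2 and 5 with each array left out (0.462% to 2.29%). The count of genes with all KO arrays above all WT arrays, 4, was 7 after quantile normalization (8.86% of all genes). It was 5 after centring on medians (7.29%). With each array left out it lay between 4 and 10 (5.94% to 16.4% of all genes), where fewer arrays separate more easily. The count with all KO arrays below, 1, was 2 after quantile normalization (10.3% of all genes) and 2 after centring on medians (8.68%). With each array left out it lay between 1 and 5 (10.2% to 19.1% of all genes).

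Some genes turned sign, most of them with differences near 0. With quantile normalization Acads was -0.0245, Hadhb -0.00655 and Ehhadh 0.00465. With median centring Acot7 was 0.0147. With probe sets averaged per gene Cpt2 was -0.0376, Crat -0.00157 (0.31 at its brightest probe set), Hadh 0.00948 and Acox3 0.0159. With each array left out in turn, sign changed within -0.371 to 0.0339 for Slc27a4, -0.125 to 0.09 for Cpt1a, -0.137 to 0.311 for Cpt2, -0.131 to 0.242 for Acadvl, -0.0779 to 0.178 for Acads, -0.363 to 0.0896 for Acad11, -0.228 to 0.139 for Etfb and -0.172 to 0.257 for Hadhb. It also changed within -0.327 to 0.157 for Hadh, -0.271 to 0.143 for Eci1, -0.404 to 0.0611 for Decr1, -0.302 to 0.0626 for Acaa1a, -0.211 to 0.187 for Ehhadh, -0.164 to 0.141 for Acot7, -0.152 to 0.0403 for Acot9 and -0.28 to 0.288 for Ucp3. Acot1 (1.41 to 2.77), Acot2 (1.02 to 2.47), Slc27a1 (0.945 to 1.51), Mlycd (0.897 to 1.4) and Eci2 (0.817 to 1.35) stayed above 0 with each array left out. No detection calls were used here, so whether dim probe sets such as that of Acot1 in WT muscle lie above background is not known.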
